A study of Mus musculus with 5 samples.

Results

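The mouse genes named Zfp from Zfp600 to Zfp999 encode zinc finger proteins, and 171 of the 21887 protein-coding genes on assembled chromosomes carry such a name. Members were chosen by symbol alone from the RefSeq annotation of GRCm38.p6, the assembly behind mm10. The 11 symbols in this number range that end in a letter were not counted as members. The 171 members were examined in 4 CUT&RUN peak lists from dissociated cells of mouse fetal testis. In CUT&RUN an antibody guides a nuclease, which cuts out the DNA that its target occupies. CREB, a transcription factor activated by cAMP signalling, was profiled at the embryonic stages E13.5, E16.5 and later E18.5 (days of gestation after the E). Values given in stage order run E13.5, then E16.5, then E18.5. An H3K4 antibody, whose label does not state a methylation state, was used at E18.5. The labels give no strain or genotype, and every library came from male gonads. Each antibody and stage had 1 library, so no value has a replicate check and no test was possible. An IgG library of the series was not analysed here.

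Most zinc finger proteins of this kind carry arrays of C2H2 fingers, each a short fold held by a zinc ion that reads a few bases of DNA. In many of them a KRAB domain recruits the corepressor Trim28, which brings the histone methyltransferase Setdb1 and heterochromatin proteins to the bound site. Many of these genes arose by tandem duplication and lie side by side, and a well-studied role is the silencing of endogenous retroviruses. Methylation of histone H3 at lysine 4 in its trimethylated form marks active promoters. CREB binds the palindrome TGACGTCA and its short form TGACG, called the short site here. The files hold peak positions without scores, so presence, place and file order are the values available, and the read depth is unknown. Presence means that any base of a peak came within 1000 bp of an outer gene end.

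As a check of the labelled tissue, H3K4 peaks lay at an end of 7 of 13 chosen testis marker genes, among them Sox9, Amh, Star and Nr5a1, and at none of 4 marker genes of other tissues. Insl3, Cyp17a1, Hsd3b1, Wt1, Gata4 and Ddx4 had none. The share over all protein-coding genes was 52.7%, so 7 of 13 is near the background and does not establish the tissue. The CREB lists held 862, 3528 and 2957 peaks in stage order and the H3K4 list 21211, with common widths of 150, 630, 160 and 210 bp. The longer E16.5 and E18.5 lists and the wide E16.5 peaks give a gene more chances to be counted.

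The sequences below are promoter stretches of members on which the results turn, from RefSeq (GRCm38.p6), each running from 200 bases before a RefSeq start to 20 bases from it, 5′ to 3′ on the gene's strand. Capitals mark TGACG on either strand, including the complete TGACGTCA. Zfp953 and Zfp738, from the same chromosome 13 cluster, had CREB peaks at all 3 stages and show the complete palindrome and a 1-base variant of it.
Zfp953 (chr13:67360553-67360772, minus strand): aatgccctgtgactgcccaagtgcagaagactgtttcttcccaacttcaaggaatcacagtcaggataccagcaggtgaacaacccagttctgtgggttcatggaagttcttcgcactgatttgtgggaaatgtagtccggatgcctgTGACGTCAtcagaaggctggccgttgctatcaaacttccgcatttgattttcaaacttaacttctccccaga
Zfp738 (chr13:67683493-67683712, minus strand): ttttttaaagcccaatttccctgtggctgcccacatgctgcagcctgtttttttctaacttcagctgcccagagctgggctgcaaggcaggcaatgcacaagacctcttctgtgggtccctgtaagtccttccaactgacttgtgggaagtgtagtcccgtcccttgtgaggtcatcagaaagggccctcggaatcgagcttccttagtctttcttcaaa
Zfp983 on chromosome 17, Zfp622 on chromosome 15 and Zfp672 on chromosome 11 also had CREB peaks at all 3 stages. The first carries TGACG at its start, the second holds it at 2 places in this stretch and the third has none.
Zfp983 (chr17:21650411-21650630, plus strand): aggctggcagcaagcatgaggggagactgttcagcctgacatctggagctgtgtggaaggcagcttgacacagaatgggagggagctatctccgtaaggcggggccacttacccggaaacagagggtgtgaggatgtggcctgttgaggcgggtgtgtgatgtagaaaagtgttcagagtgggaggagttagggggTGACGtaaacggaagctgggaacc
Zfp622 (chr15:25984166-25984385, plus strand): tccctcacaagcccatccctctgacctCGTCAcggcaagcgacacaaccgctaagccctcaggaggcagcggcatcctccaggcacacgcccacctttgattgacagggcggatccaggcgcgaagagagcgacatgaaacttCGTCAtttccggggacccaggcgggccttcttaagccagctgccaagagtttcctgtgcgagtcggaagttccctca
Zfp672 (chr11:58330320-58330539, minus strand): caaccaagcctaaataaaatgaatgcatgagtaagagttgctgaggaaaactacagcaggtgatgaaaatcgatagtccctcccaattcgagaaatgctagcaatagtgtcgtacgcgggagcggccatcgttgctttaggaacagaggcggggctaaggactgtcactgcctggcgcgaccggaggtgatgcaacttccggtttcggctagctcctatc
Zfp869, Zfp963, Zfp868 and Zfp866 belong to the cluster on chromosome 8 in which 4 of 5 members had CREB peaks.
Zfp869 (chr8:69716883-69717102, minus strand): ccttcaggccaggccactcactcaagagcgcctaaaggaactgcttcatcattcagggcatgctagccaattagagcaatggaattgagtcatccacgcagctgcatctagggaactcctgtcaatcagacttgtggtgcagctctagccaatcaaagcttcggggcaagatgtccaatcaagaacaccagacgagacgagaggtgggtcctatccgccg
Zfp963 (chr8:69749943-69750162, minus strand): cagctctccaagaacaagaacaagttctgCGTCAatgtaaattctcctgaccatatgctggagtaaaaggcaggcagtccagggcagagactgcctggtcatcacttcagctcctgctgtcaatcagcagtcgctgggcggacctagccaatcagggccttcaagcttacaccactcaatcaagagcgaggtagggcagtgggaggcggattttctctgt
Zfp868 (chr8:69625529-69625748, minus strand): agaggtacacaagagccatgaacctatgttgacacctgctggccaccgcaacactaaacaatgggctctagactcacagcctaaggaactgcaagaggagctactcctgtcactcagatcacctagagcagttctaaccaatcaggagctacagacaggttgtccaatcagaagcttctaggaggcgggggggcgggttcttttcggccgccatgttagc
Zfp866 (chr8:69774892-69775111, minus strand): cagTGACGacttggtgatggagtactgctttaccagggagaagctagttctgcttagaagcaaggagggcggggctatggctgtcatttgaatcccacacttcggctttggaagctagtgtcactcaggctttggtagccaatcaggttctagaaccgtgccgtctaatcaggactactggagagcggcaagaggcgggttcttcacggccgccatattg
Zfp967 and Zfp973 on chromosome 2 had no peak in any list, and all 50-base words of their 300-base promoters also occur at another promoter.
Zfp967 (chr2:176520804-176521023, plus strand): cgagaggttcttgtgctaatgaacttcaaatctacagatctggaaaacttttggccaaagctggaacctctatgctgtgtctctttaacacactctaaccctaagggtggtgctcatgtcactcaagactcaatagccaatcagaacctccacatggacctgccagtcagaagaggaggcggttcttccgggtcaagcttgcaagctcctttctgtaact
Zfp973 (chr2:176670322-176670541, plus strand): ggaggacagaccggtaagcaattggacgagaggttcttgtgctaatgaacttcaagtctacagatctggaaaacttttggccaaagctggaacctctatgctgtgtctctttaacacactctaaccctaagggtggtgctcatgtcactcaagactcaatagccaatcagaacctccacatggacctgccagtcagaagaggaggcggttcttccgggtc

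H3K4 marked most of these zinc finger genes. An H3K4 peak lay at an end of 122 of 171 members, which is 71.3% (95% Wilson interval 64.2 to 77.6), against 52.7% of all protein-coding genes. The difference from the other protein-coding genes was 18.8 points (Newcombe interval 11.6 to 25.1; these intervals cover counting error only). Genes from Zfp1 to Zfp599 were close to the members, with 151 of 196 (77.0%, 70.7 to 82.4), and the difference of -5.70 points had an interval that includes 0 (-14.6 to 3.23). The H3K4 peaks at members stood early in their file, at a median of 25.2% of the list, and 115 of 145 were among the first 50% of its peaks. H3K4 peaks at other genes were not ranked in this way, so an early place is not shown to be particular to the members. The CREB peaks at members stood at medians of 51.6%, 43.7% and 48.5% of their lists in stage order. The sources used here do not say what the file order means. The earliest H3K4 peaks were those at Zfp763 (position 132 of 21211), Zfp945 (139), Zfp748 (227), Zfp949 (239) and Zfp935 (282). None of these members had a CREB peak at an end.

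CREB peaks lay at an end of 9 members in the E13.5 list, 34 in that of E16.5 and 27 in the E18.5 list. These are 5.26% (2.79 to 9.70), 19.9% (14.6 to 26.5) and 15.8% (11.1 to 22) of the members, against 3.94%, 14.9% and 12.9% of all protein-coding genes. Genes from Zfp1 to Zfp599 were close to the members, with 4.59%, 21.4% and 17.3% in stage order. The members differed from these by 0.671, -1.55 and -1.56 points, and each interval included 0 (-3.95 to 5.60, -9.75 to 6.85 and -9.12 to 6.21). The differences from the other protein-coding genes were 1.34, 4.97 and 2.94 points, and each interval included 0 (-1.15 to 5.78, -0.341 to 11.6 and -1.79 to 9.17). At E16.5 the interval excluded 0 with gene starts alone (6.02 points, 0.215 to 13.3) and with letter-suffixed names added (5.98, 0.685 to 12.5). It also did so between members and other genes that both had promoters without copied 50-base words (8.01, 0.934 to 16.7), a comparison that gave 5.05 points at E18.5 (-1.26 to 13.3). All 35 members with a CREB peak at any stage also had an H3K4 peak, and none of the 49 members without H3K4 had one, which allows a share of up to 6.12%. Over all protein-coding genes, 94.9% of the 3656 with CREB also had H3K4, and 1.79% of the 10353 without H3K4 had CREB, so both counts of the members were near the background. Among genes with H3K4, CREB was found at 7.38% (3.93 to 13.4), 27.9% (20.7 to 36.4) and 22.1% (15.7 to 30.3) of the 122 members in stage order. The same shares over all 11534 protein-coding genes with H3K4 were 7.20%, 27.0% and 23.4%. The members' CREB shares were near the background of H3K4 genes at every stage.

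**Figure D1:**
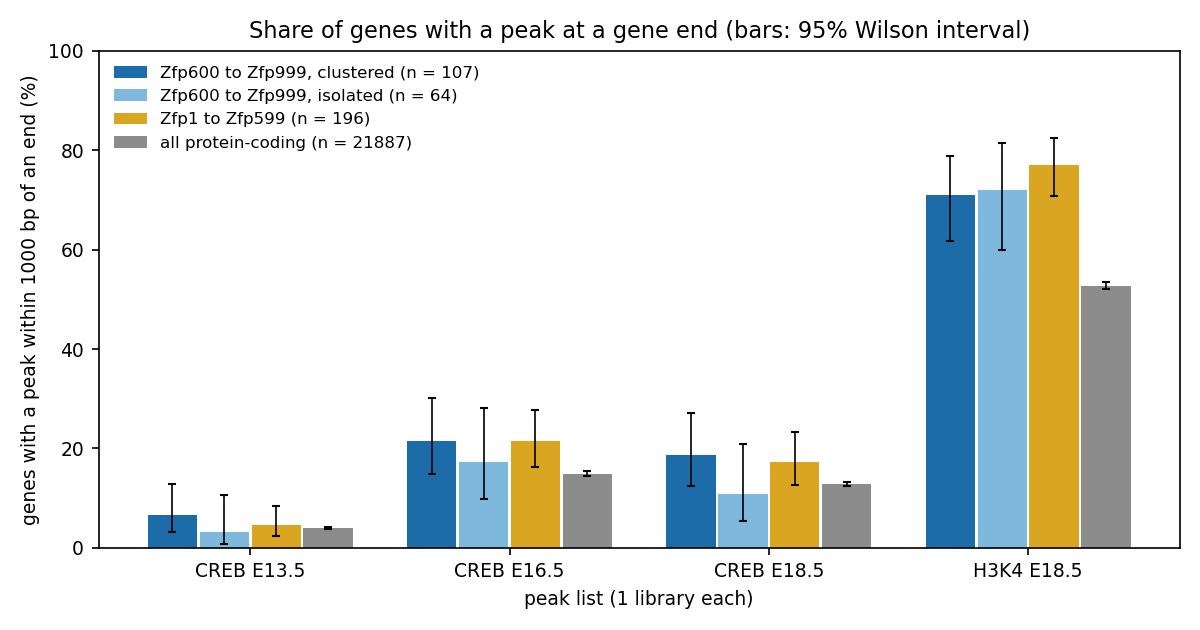
Share of genes with a peak within 1000 bp of an outer gene end (y axis, percent) in each of the 4 peak lists (x axis), for clustered and isolated members, Zfp1 to Zfp599 and all protein-coding genes. Bars give the share and lines the 95% Wilson interval; the H3K4 bars of clustered (71.0%) and isolated members (71.9%) stand above that of all protein-coding genes (52.7%), while the CREB intervals of the members reach or include the values of all genes.

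All 9 members with a CREB peak at E13.5 also had one at both later stages. They are Zfp622, Zfp672, Zfp738, Zfp760, Zfp869, Zfp953, Zfp959, Zfp963 and Zfp983, 5.26% of members against 3.83% of all protein-coding genes with CREB at all 3 stages. A further 17 members had CREB at E16.5 and E18.5 only (9.94%, 6.30 to 15.3), against 7.29% of all protein-coding genes. Among them were Zfp687, the mouse counterpart of a human gene mutated in Paget disease of bone, and Zfp619, Zfp712, Zfp799, Zfp866, Zfp868 and Zfp948. CREB at E16.5 alone was seen at 8 members, Zfp655, Zfp689, Zfp691, Zfp810, Zfp830, Zfp839, Zfp940 and Zfp975, and at E18.5 alone at Zfp692. Together these 9 single-stage members are 5.26%, against 5.48% of all protein-coding genes. Whether a member missing from a shorter list differed between stages could not be tested with 1 library per stage.

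Zfp672 stood earliest among the members at 2 of the 3 stages. Its CREB peak was in position 26 of 862, 63 of 3528 and 36 of 2957 in stage order. The midpoints lay 146.5, 37.5 and 114.5 bp outside the gene start, and the H3K4 peak in position 399 lay 162.5 bp outside it. These peaks also lie within 1000 bp of an end of Sh3bp5l, so they cannot be given to Zfp672 alone. Its neighbour Zfp692, whose far end overlaps that of Zfp672, had a CREB peak at E18.5 alone, in position 2251 and 35.5 bp outside its start.

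Zfp622, whose human counterpart takes part in maturation of the large ribosomal subunit, had CREB peaks in positions 251, 865 and 455 in stage order. Their midpoints lay 70.5, 132.5 and 129.5 bp outside the gene start, on the stretch that holds its 2 short sites. H3K4 lay on the other side of the start, with midpoints 225.5 and 927.5 bp inside the gene. Zfp959 showed how an outer gene end can miss the start in use. Its CREB midpoints lay 1047.5, 1178.5 and 1041.5 bp inside the outer end in stage order, and the RefSeq start of its promoter lies 1009 bp inside that end.

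CREB and H3K4 peaks of the members sat at gene starts. Of the members whose strand is known from the promoter table, CREB lay nearest the start at 9 of 9, 31 of 32 and 24 of 25 in stage order, and H3K4 at 107 of 108. The exception was Zfp771, whose CREB and H3K4 peaks lay 732.5 (E16.5), 708.5 (E18.5) and 358.5 bp (H3K4) from its far end. The place of peaks at other protein-coding genes was not measured, so a place at the start is not shown to be particular to the members. At the starts, the median CREB midpoint lay 66.5, 67.5 and 46.5 bp inside the outer gene start in stage order. The median H3K4 midpoint lay 194 bp inside it. This outer start was the RefSeq start of the promoter at 67 of the 148 members with a promoter sequence. At the others, a midpoint inside the outer start can lie before the RefSeq start. Zfp628 had a CREB peak at its start and another, at E18.5, 737.5 bp from its far end. Every CREB peak at a member had an H3K4 midpoint within 1000 bp, at a median distance of 125, 196 and 154 bp in stage order. Direct overlap with an H3K4 peak was found for 6 of 9, 34 of 34 and 16 of 28 CREB peaks, where the E16.5 peaks are the wide ones. These distances and overlaps were not measured for CREB peaks at other genes. Of all protein-coding genes with CREB, 94.9% also had an H3K4 peak at an end, so closeness is not shown to be particular to the members.

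**Figure D2:**
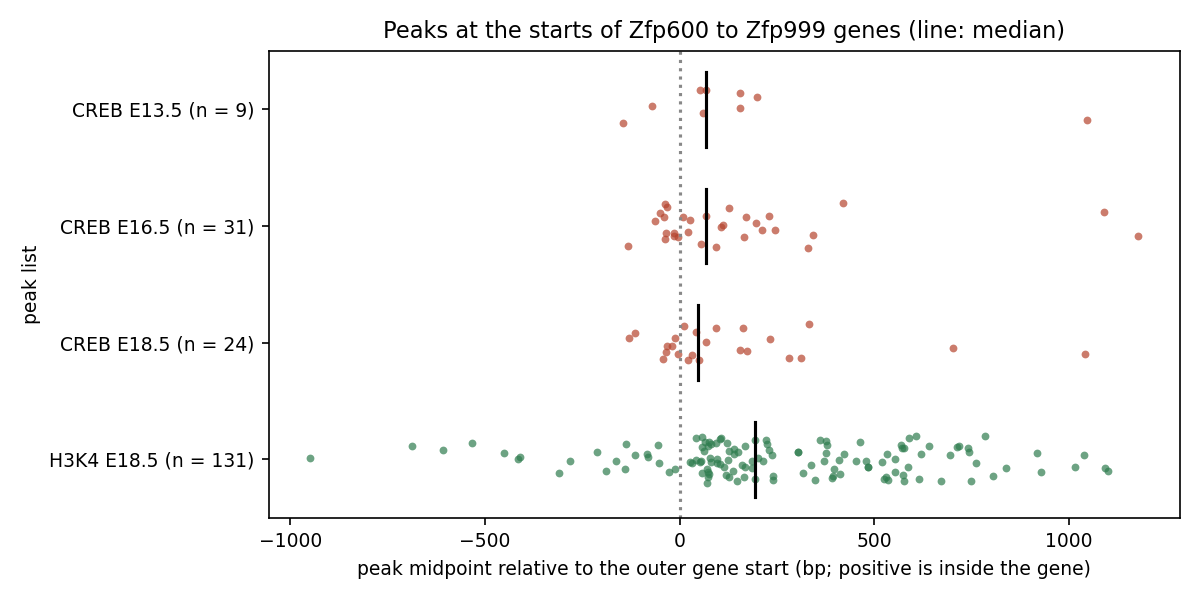
Midpoints of peaks at the starts of members with known strand, as distance from the outer gene start (x axis, bp, positive inside the gene), for each peak list (y axis). Each point is 1 peak and the black line is the median. CREB medians lie 66.5, 67.5 and 46.5 bp inside the outer gene start and the H3K4 median 194 bp inside it.

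Members less than 200 kb apart formed 29 clusters with 107 genes, and 64 members were isolated. H3K4 did not separate the groups, with 76 of 107 clustered members (71.0%) and 46 of 64 isolated members (71.9%), a difference of -0.847 points (Newcombe interval -14.1 to 13.4). With a window of 500 bp in place of 1000 bp this difference was 12 points (-2.80 to 26.6), with the other sign. CREB was found at 7 clustered and 2 isolated members at E13.5 (6.54% and 3.12%), 23 and 11 at E16.5 (21.5% and 17.2%), and 20 and 7 at E18.5 (18.7% and 10.9%). The differences of 3.42, 4.31 and 7.75 points had intervals that include 0 (-4.86 to 10.2, -8.61 to 15.7 and -4.01 to 17.8). Genes of a cluster share an origin and are not independent, which these intervals do not cover. Around the 200 kb limit, Zfp759 and Zfp953 (196904 bp apart) were the widest neighbours joined, and Zfp629 and Zfp668 (245239 bp) the closest left apart. Zfp629 and Zfp668 both had H3K4 and no CREB. At the number limit, Zfp600 had no peak and Zfp605 an H3K4 peak, while just outside it Zfp599 had H3K4 and Zfp598 had H3K4 and CREB at E16.5.

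The clusters ranged from H3K4 at every member to H3K4 at none. The 9 clusters of 4 or more members held 60 genes, and a CREB peak lay at 6, 16 and 14 of these in stage order (10%, 26.7% and 23.3%). In the 20 clusters of 2 or 3 members, with 47 genes, the counts were 1, 7 and 6 (2.13%, 14.9% and 12.8%). The intervals of the larger clusters (4.66 to 20.1, 17.1 to 39.0 and 14.4 to 35.4) and of the smaller ones (0.377 to 11.1, 7.41 to 27.7 and 5.98 to 25.2) overlapped at every stage, beside 3.94%, 14.9% and 12.9% of all protein-coding genes. CREB was found in 13 of the 29 clusters, and in 7 of them at 2 or more members.

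The cluster from Zfp868 to Zfp866 on chromosome 8 (69610654 to 69774911, mm10) held 5 members within 0.164 Mb, all with H3K4. CREB lay at Zfp869 and Zfp963 at all 3 stages and at Zfp868 and Zfp866 at E16.5 and E18.5, whereas Zfp964 had none. Zfp869 was the earliest member of the E16.5 list, in position 22 of 3528, and stood in position 223 at E13.5 and 123 at E18.5. Its CREB midpoints lay 52.5, 420.5 and 22.5 bp inside the outer end in stage order, and those at Zfp963 198.5, 328.5 and 332.5 bp inside. The RefSeq start of the Zfp869 promoter lies 166 bp inside its outer end, so the E13.5 and E18.5 midpoints lie before that start. No other protein-coding gene lies in this span, and it held 2, 4 and 4 CREB peaks in the 3 lists, all at members. The 5 promoters were 47.5 to 56.9% identical to each other in global alignment, with a median of 51.1%, beside a median of 47.5% over all 208 pairs within clusters. Unrelated promoters were not aligned, so these identities have no background and do not show a shared origin. None of the 50-base words of the 4 promoters with CREB occurs at another promoter.

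Every member of the largest cluster, the 13 genes from Zfp677 to Zfp946 on chromosome 17 (21383707 to 22456689), had an H3K4 peak. Among its members CREB lay at 3 adjacent ones, Zfp983 and Zfp760 at all stages and Zfp948 at E16.5 and E18.5. The span, which also holds 7 other protein-coding genes, had 3, 5 and 7 CREB peaks in stage order, so some lay away from the ends of members. Zfp983 stood in positions 153, 633 and 690 in stage order, with midpoints 154.5, 20.5 and 94.5 bp inside the gene. At Zfp760 the positions were 771, 689 and 1058 and the midpoints 155.5, 171.5 and 163.5 bp inside. These distances are from the outer end, and the RefSeq start of the Zfp760 promoter lies 311 bp inside it, beyond its CREB midpoints. At Zfp983 the RefSeq start lies 39 bp inside, so only the E16.5 midpoint lies before it. The other chromosome 17 cluster, the 6 genes from Zfp871 to Zfp763, also had H3K4 at all members, with CREB at Zfp799 only (E16.5 and E18.5).

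On chromosome 13 the 6 genes from Zfp712 to Zfp738 (67038594 to 67683512) had H3K4 at 4 members and CREB at Zfp953 and Zfp738 at all stages and at Zfp712 at E16.5 and E18.5. Zfp953 stood in position 540 at E13.5 and 1082 at E18.5, and at E16.5 its peak was the fifth earliest among the members. Zfp738 stood in positions 478, 470 and 498 in stage order. Zfp748, between them, had H3K4 in position 227 and no CREB. Of the 7 genes from Zfp771 to Zfp629 on chromosome 7, CREB was seen at Zfp771 (E16.5 and E18.5) and Zfp689 (E16.5), and H3K4 at 6. In the cluster of 4 on chromosome 9, Zfp653 had CREB at E16.5 and E18.5, within reach of an end of Ecsit, and Zfp810 had it at E16.5. Zfp617 was the only CREB member among the 4 genes from Zfp709 to Zfp961 on chromosome 8, and the 4 from Zfp786 to Zfp746 on chromosome 6 had none.

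**Figure D3:**
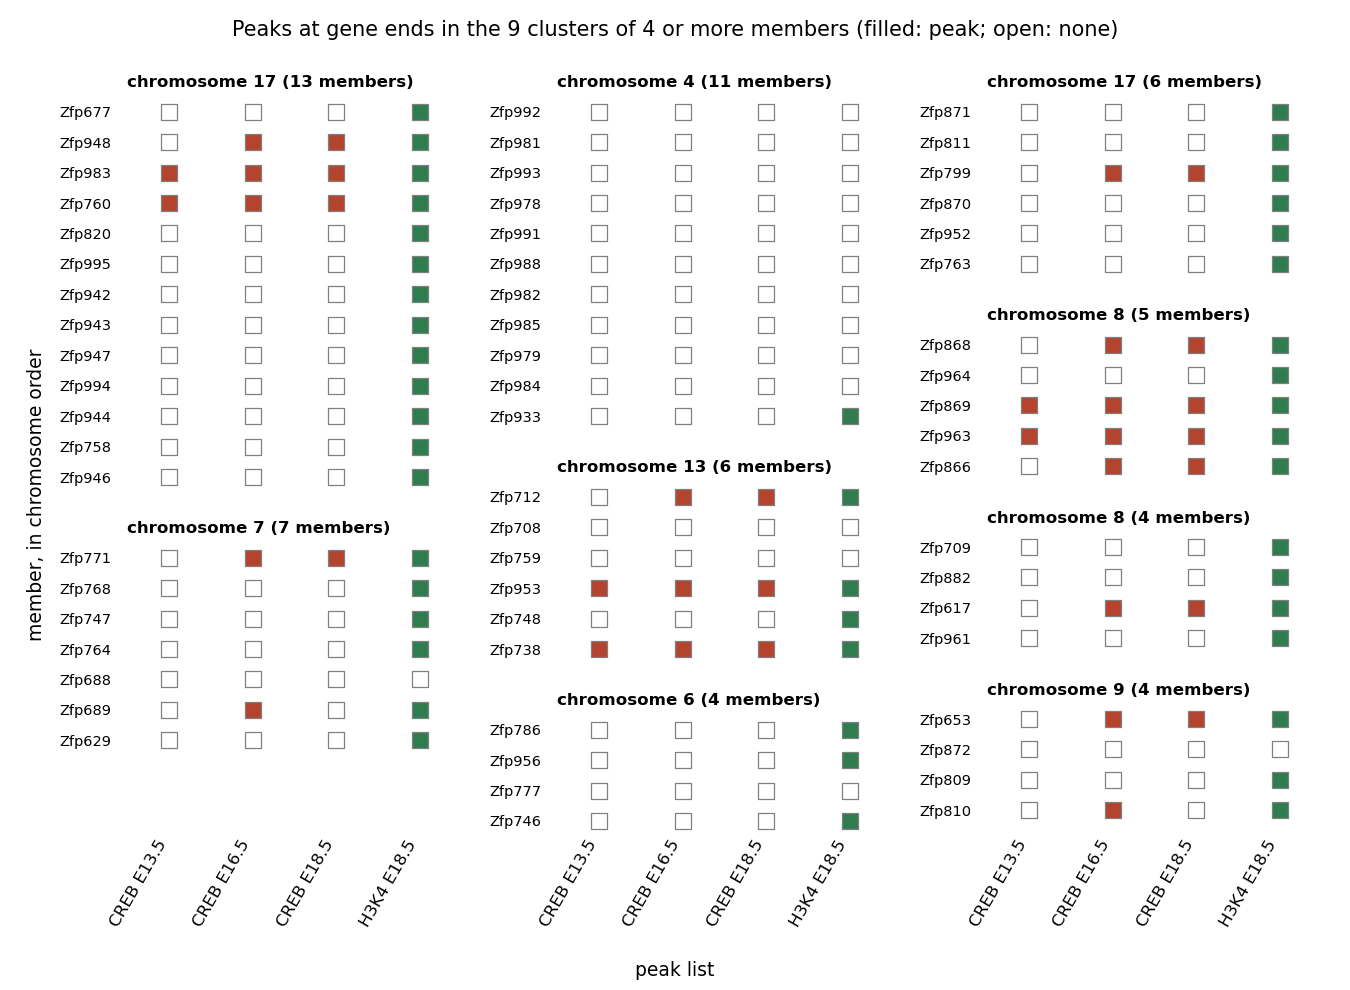
Presence of a peak at a gene end for each member (rows, in chromosome order) of the 9 clusters of 4 or more members, in the 4 peak lists (columns). Filled squares are peaks and open squares none; H3K4 marks 13 of 13 members of the largest cluster on chromosome 17 and 1 of 11 on chromosome 4, and CREB marks 4 of 5 members of 1 cluster on chromosome 8.

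The cluster from Zfp992 to Zfp933 on chromosome 4 (146449030 to 147849126) was nearly empty. Of its 11 members only Zfp933, at its edge, had an H3K4 peak, and this was the single H3K4 peak in 1.40 Mb. No CREB peak of any list lay in the span, which allows a share of up to 27.3% of 11 members. The neighbouring pairs Zfp990 and Zfp980, and Zfp987 and Zfp600, had no peak in any list. The same held on chromosome 2 for the pairs Zfp968 and Zfp965, and Zfp967 and Zfp973. These pairs are the 4 clusters with no peak at any member. In all, 3 of 17 members on chromosome 4 and 6 of 14 on chromosome 2 had H3K4, against 22 of 22 on chromosome 17. By number, H3K4 was found at 36 of 44 members from Zfp600 to Zfp699 (81.8%, 68.0 to 90.5) and 26 of 38 in the 700 range (68.4%, 52.5 to 80.9). It was at 23 of 27 in the 800 range (85.2%, 67.5 to 94.1) and 37 of 62 from Zfp900 to Zfp999 (59.7%, 47.3 to 71.0). The intervals of the 700 and 900 ranges include the 52.7% of all protein-coding genes.

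Promoter sequence was found for 148 of 171 members, and 115 of these promoters held no 50-base word that occurs at another promoter of the table. Among these 115 members, 82.6% (74.7 to 88.5) had H3K4, against 58.0% (57.2 to 58.7) of all protein-coding genes with such promoters. Of the 14 members with more than 50% of words elsewhere, 5 had H3K4 (35.7%, 16.3 to 61.2) and none had CREB, which allows a share of up to 21.4%. Over all protein-coding genes with such promoters the H3K4 share was 3.03% (2.09 to 4.37). The 9 without H3K4 included 6 members on chromosome 2, Zfp968, Zfp965, Zfp966, Zfp967, Zfp973 and Zfp970, with 95.2 to 100% of words elsewhere. Zfp600 on chromosome 4 had 94.0%. The 5 with H3K4 were Zfp942, Zfp943, Zfp944 and Zfp758 on chromosome 17 (70.1 to 82.1%) and Zfp931 on chromosome 2 (57.8%). Zfp942 and Zfp943 were counted by the same H3K4 peaks, and so were Zfp944 and Zfp758. The 5 are therefore not independent, which the interval does not cover. Reads from copied sequence can be hard to place, and how the authors treated such reads is not given in the sources used here. The part of copied sequence in the missing peaks was not tested. In the chromosome 4 cluster, the 8 members with a promoter had a median of 0.797% of words elsewhere. This counts exact words at other promoters only, and the rest of the genome was not searched. Promoter pairs within that cluster were from 40.3% (Zfp993 and Zfp982) to 81.3% (Zfp985 and Zfp979) identical, so a low share of words does not show sequence without near copies. Among members with uncopied promoters H3K4 was at 62 of 71 clustered (87.3%) and 33 of 44 isolated members (75%), a difference of 12.3 points (-1.91 to 27.9).

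H3K4 was also set against the CG content of the promoter. The 108 members with H3K4 and a promoter sequence had a median of 12 CG in 300 bases (quartiles 8 and 21), against 21 (14 and 29) for the 9246 such protein-coding genes. With at most 6 CG, H3K4 was found at 38.5% of 39 members (24.9 to 54.1), against 11.8% (11 to 12.6) of all protein-coding genes. From above 6 to 21 CG it was at 87.7% of 81 members (78.7 to 93.2), against 68.6% (67.4 to 69.8). Above 21 CG the shares were 78.6% of 28 members (60.5 to 89.8) and 83.0% (82.0 to 83.9), with overlapping intervals. In these 3 classes, from low to high CG, CREB at E13.5 was at 2.56%, 9.88% and 0% of the members, against 0.433%, 4.81% and 7.63% of all protein-coding genes. The 0 of 28 members allows a share of up to 10.7%. CREB at E16.5 was at 7.69%, 27.2% and 25% of the members, against 1.72%, 19.9% and 27.1%. CREB at E18.5 was at 7.69%, 22.2% and 14.3%, against 1.46%, 17.3% and 23.5%. In the high class the members' intervals at E16.5 (12.7 to 43.4) and E18.5 (5.70 to 31.5) included the values of all protein-coding genes. Those of the middle class did so at E16.5 (18.7 to 37.7) and E18.5 (14.5 to 32.4) and lay above at E13.5 (5.09 to 18.3). In the low class they lay above in stage order (0.454 to 13.2, 2.65 to 20.3 and 2.65 to 20.3), resting on 1, 3 and 3 of 39 members.

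**Figure D4:**
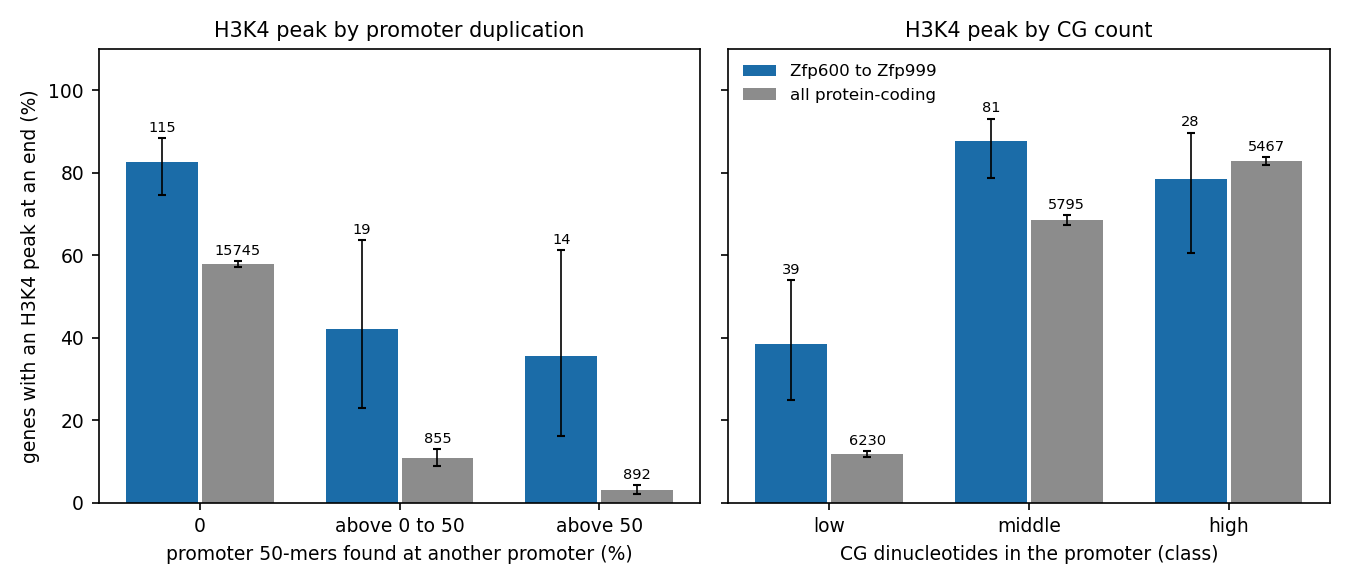
Share of genes marked by H3K4 at an end (y axis, percent) by the share of promoter 50-base words found at another promoter (left) and by the number of CG dinucleotides (right; low up to 6, middle up to 21, high above 21), for members and for all protein-coding genes. Lines are 95% Wilson intervals and the numbers over them count genes; members without copied words stand at 82.6% against 58.0%, and members of the low CG class at 38.5% against 11.8%.

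TGACGTCA was searched in the 300-base promoter nearest the outer start of each gene and occurred in 1 of 148 members (0.676%, 0.119 to 3.73), an interval that includes the 2.33% of all protein-coding promoters. The short site TGACG, counted on either strand and also inside the palindrome, occurred in 41 of 148 members (27.7%, 21.1 to 35.4), against 23.8%. Among the 33 members with a CREB peak and a promoter sequence, 19 held the short site (57.6%, 40.8 to 72.8) and 1 the palindrome (3.03%, 0.537 to 15.3). Over all 3062 protein-coding genes with CREB these shares were 54.2% (52.4 to 56.0) and 9.44% (8.45 to 10.5). Members with H3K4 and no CREB held the short site in 17 of 75 cases (22.7%, 14.7 to 33.3), and members without H3K4 in 5 of 40 (12.5%, 5.46 to 26.1). Over all protein-coding genes of these classes the shares were 21.6% (20.7 to 22.7) and 14.4% (13.7 to 15.2). The members' short-site shares were thus near the background in each class. A match describes the letters and does not show a bound site.

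Zfp953 was the member with the palindrome, whose first base lies 52 bases before its start. The CREB midpoints lay 109, 16.0 and 91.0 bp from it in stage order. The promoter of Zfp738 held TGAGGTCA, 33 bases before the start, which differs from the palindrome by C4G (positions counted from 1 at the 5′ end of TGACGTCA). Zfp983 carried TGACGTAA, which differs by C7A, starting 4 bases before its start. The nearest short site lay at a median of 114 bp from the E13.5 midpoint in 4 members. It lay at 38.5 bp from the E16.5 midpoint in 17 and 78.5 bp from the E18.5 midpoint in 13. These distances were 15.5 to 368 bp, 7.50 to 498 bp and 15.5 to 502 bp in stage order, leaving out Zfp771, whose peaks lie at its far end. Sites were searched only in the 300-base promoter, the peaks lie at gene ends and the nearest site was taken. Short distances are therefore partly built in and do not show that CREB sits on these sites.

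CCAAT on either strand, a word searched after the chromosome 8 promoters had been read, was in 91 of 148 members (61.5%, 53.5 to 68.9), against 39.2% of all protein-coding promoters. It occurred in all 5 members of that chromosome 8 cluster, including Zfp964, which had no CREB. It was in 22 of 33 members with CREB (66.7%, 49.6 to 80.2), 40 of 75 with H3K4 and no CREB (53.3%, 42.2 to 64.2) and 29 of 40 without H3K4 (72.5%, 57.2 to 83.9), and these intervals overlap.

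Starts inside a gene are not counted by the outer ends. With the RefSeq starts of the promoter table, H3K4 was found at 117 of the 148 members, 10 of them without a peak at an outer end. Among these were Zfp777, Zfp688, Zfp790, Zfp821 and Zfp827, whose human counterpart acts at telomeres. CREB was added at Zfp759 at E16.5 and E18.5 and at Zfp787 at E18.5. With these starts the H3K4 share of the members was 22.6 points (15.4 to 28.5) above that of other protein-coding genes in the promoter table. In total 15 of the 49 members without H3K4 at an end had an H3K4 peak in the gene body or within 1000 bp of it. That last count was not made over all protein-coding genes, so it has no background.

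Some of these peaks also lay near another protein-coding gene. The CREB peak also lay within 1000 bp of an end of another protein-coding gene at 1 of 9, 4 of 34 and 2 of 27 members in stage order. The partners were Sh3bp5l for Zfp672, Ecsit for Zfp653, Cct6b for Zfp830 and Ermap for Zfp691. For H3K4 the count was 17 of 122 members. Such sharing was not counted over all protein-coding genes, so these counts have no background.

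Of 14 members chosen for a described role, 12 had H3K4 (85.7%, 60.1 to 96.0), beside 52.7% of all protein-coding genes. Of these 12, Zfp622 and Zfp687 had CREB at any stage (16.7%, 4.70 to 44.8), an interval that includes the 30.1% of all protein-coding genes with H3K4. Zfp809, which recognises retroviral DNA and recruits Trim28 to it in mouse stem cells, had H3K4 in position 4681 and no CREB. Zfp932, a repressor of endogenous retroviruses in mouse, had H3K4 in position 869, and Zfp819 in 18112. H3K4 was also seen at Zfp638, Zfp644, Zfp703, Zfp711, Zfp746, Zfp768 and Zfp800, and not at Zfp750, a regulator of epidermal differentiation, or at the outer ends of Zfp827. Of 25 genes of the corepressor pathway used by KRAB zinc finger proteins, 20 had H3K4 (80%, 60.9 to 91.1), beside 52.7% of all protein-coding genes. CREB lay at 1, 6 and 8 of them in stage order, or 4% (0.710 to 19.5), 24% (11.5 to 43.4) and 32% (17.2 to 51.6), beside 3.94%, 14.9% and 12.9%. Among the 20 with H3K4, 7 had CREB at any stage (35.0%, 18.1 to 56.7). That interval includes the 30.1% of all protein-coding genes with H3K4. Trim28, the corepressor itself, had CREB at E16.5 and E18.5, as did the heterochromatin protein gene Cbx3. Cbx5 had CREB at all 3 stages, and the methyltransferase gene Setdb1 had H3K4 and no CREB.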

How the data were processed

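CUT&RUN peak lists from male fetal gonads were used, 1 library per antibody and stage, grouped by title. Trimming with Trim Galore 0.6.10, alignment with Bowtie2 2.5.2 and peak calling with MACS2 on mm10 are listed per the submitters' processing notes, without settings. Whether IgG served as control is not given. The deposited files hold chromosome, start and end of each peak, without a score or count. Positions are printed 1-based.

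RefSeq annotation of GRCm38.p6 supplied gene ends, and strands, starts and 300-base promoters came from a RefSeq promoter table. Overlap of at least 1 bp was required. Shares carry 95% Wilson and differences Newcombe intervals, and no test was run. A share of 0 is given with the limit that 3 counts allow. Promoters were aligned globally (match 1, mismatch -1, gap opening -3, gap extension -0.5). The members, lists and comparisons were chosen with earlier results of these data known. Named are members with CREB at all stages, members of clusters of 4 or more, the 5 earliest per list, members near the limits, members sharing a peak with another gene, and 15 genes with a role, of which Zfp804a ends in a letter and is no member. The planned finger and KRAB searches were not run, because no protein sequences were used here. Python 3.11.15, numpy 2.4.6, pandas 2.3.3, scipy 1.17.1, Biopython 1.88 and matplotlib 3.10.9 were used, and the code was tested on simulated data.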

Additional observations from a re-analysis of the deposited data

How the results depend on the processing

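The H3K4 difference between clustered and isolated members was near 0 and changed sign under 6 alternatives. It was 12 points with a window of 500 bp, 3.52 with neighbours less than 100 kb apart, 5.80 with clusters formed among all numbered Zfp genes, 1.2 with letter-suffixed names added, 0.950 with any RefSeq start and 12.3 for promoters without a shared 50-base word. The last 3 alternatives were chosen after seeing the data. The CREB differences between these groups kept their sign under all 12 alternatives but not their size, with 0.740 to 6.18 points at E13.5, 0.937 to 7.71 at E16.5 and 4.56 to 14 at E18.5, and every interval included 0. With as many first peaks from each list as E13.5 holds (862), 12 members had CREB at E16.5, 9 at E18.5 and 13 had H3K4. The H3K4 excess over other protein-coding genes was then 3.46 points, and CREB at E16.5 and E18.5 lay at 7.69% of the 13 H3K4 members; fewer peaks were counted by construction. With members limited to promoters without a shared word and the other genes unfiltered, the H3K4 excess was 30.1 points, and it was 24.8 with both limited, a setting also chosen after seeing the data. Of 36 alternative counts of members with a peak, 33 stayed within 1.5 times the reported count. No replicate could be left out and no paired analysis was possible because each group had 1 library. The unknown depth limits every absent peak.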
